A study of Mus musculus with 2 samples.

Results

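Pyruvate dehydrogenase converts pyruvate, the product of glycolysis, to acetyl-CoA in mitochondria, and lactate dehydrogenase converts pyruvate to lactate in the cytosol. The genes described here are Pdha1, Pdhb, Dlat and Dld, which encode the catalytic subunits of the pyruvate dehydrogenase complex, Pdk1, Pdk2, Pdk3 and Pdk4, which encode the kinases that switch the complex off by phosphorylating the Pdha1 product, and Ldha and Ldhb, which encode the muscle-type and heart-type lactate dehydrogenase subunits. These 10 genes were taken by their symbol in the platform annotation, out of 18194 genes with a probe set (a group of short oligonucleotides for 1 transcript) named for them alone. They have 21 probe sets, and none of these is shared with another named gene.

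Skeletal muscle RNA of female RXRγ mice of line 4-3, in which the human α-actin promoter drives RXRγ in skeletal muscle, was compared with that of female non-transgenic control mice, both C57BL6 and 4 months of age. The RNA of several animals was pooled within a genotype (5 by the series text and 3 by the extraction protocol), and each pool was hybridized to 1 Affymetrix MG430 array. There were thus no replicates and no error on any value, and no test between the genotypes was possible. The RXRγ pool came from 1 transgenic line, the mice ate freely unless stated otherwise, and the sources used here name neither the muscle nor a fast before the RNA was taken.

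Rxrg, the overexpressed gene, read 9172 in RXRγ mice and 334.5 in control mice. All 6 listed markers of skeletal muscle fibres were measured. By the mean of their probe sets Ckm, Myh4 and Ttn were lower in RXRγ mice, while at the brightest probe set of each the log2 ratios were -0.11, -0.06 and -0.17, each less than 0.4 away from 0. Over the 6 markers the summed signal was 63194 in RXRγ mice and 70064 in control mice. Of the listed markers of other cells, those of hepatocytes were under 150 on both arrays, as were the cardiac genes Myh6, Nppa, Nppb and Tnni3. The cardiac actin gene Actc1, which developing skeletal muscle also uses, had 8640 in RXRγ mice and 5982 in control mice. Summed over their listed markers, adipocytes had 6401 in RXRγ mice and 5858.5 in control mice, and fibroblasts had 7171 in RXRγ mice and 6717 in control mice. No listed marker of erythroid, endothelial or Schwann cells was measured. Lyz2 of the leukocyte list and 1 smooth muscle marker were measured, and each differed by less than 0.4 on the log2 scale between the genotypes. Sums take the brightest probe set of each gene on each array.

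The kinases set how much pyruvate is oxidized in mitochondria. Fasting raises Pdk4 in muscle, where FoxO factors and PPAR, a nuclear receptor that binds DNA together with RXR, are known to act on the gene, while Pdk1 is known as a hypoxia-inducible gene. Paired phosphatases, encoded by Pdp1 and Pdp2, remove the phosphate again. The Ldha subunit prevails in fast glycolytic fibres and the Ldhb subunit in the heart and in oxidative fibres.

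Because the study asks how RXRγ acts on glucose metabolism genes, the sequence just before the start of each gene was read for the letters that RXR heterodimers bind. RefSeq promoters of GRCm38.p6, from 250 bases before to 50 bases after a start, were found for 10 of 10 genes, 13 promoters in all. The letters searched on both strands were AGGTCA, to which RXR and its partners bind, a pair of these spaced by 1 base (DR1) or by 4 bases (DR4), TCAAGGTCA, which holds AGGTCA and is the site of estrogen-related receptors, the forkhead site GTAAACA, the hypoxia site core ACGTG, the E-box CACGTG, which holds ACGTG on both strands, and the TATA box as TATAAA. The promoters of Pdk4 and Dlat, the members lower in RXRγ mice, and of both lactate dehydrogenases, which held matches, are printed 5′ to 3′ on the strand of the gene, with matches in capitals.
Pdk4, chr6:5496229-5496528, minus strand: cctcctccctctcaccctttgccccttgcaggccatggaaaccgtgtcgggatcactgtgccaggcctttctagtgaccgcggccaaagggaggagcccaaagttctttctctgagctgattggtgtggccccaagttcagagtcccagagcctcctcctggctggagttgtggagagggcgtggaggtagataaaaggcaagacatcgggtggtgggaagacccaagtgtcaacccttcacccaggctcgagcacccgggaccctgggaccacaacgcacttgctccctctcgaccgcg
Dlat, chr9:50659731-50660030, minus strand: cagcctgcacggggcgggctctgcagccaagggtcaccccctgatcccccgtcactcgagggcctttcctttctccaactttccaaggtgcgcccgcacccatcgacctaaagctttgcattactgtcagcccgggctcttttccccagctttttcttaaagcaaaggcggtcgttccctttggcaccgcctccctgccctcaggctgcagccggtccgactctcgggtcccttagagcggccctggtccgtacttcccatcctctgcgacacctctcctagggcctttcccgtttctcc
Ldhb, chr6:142507908-142508207, minus strand: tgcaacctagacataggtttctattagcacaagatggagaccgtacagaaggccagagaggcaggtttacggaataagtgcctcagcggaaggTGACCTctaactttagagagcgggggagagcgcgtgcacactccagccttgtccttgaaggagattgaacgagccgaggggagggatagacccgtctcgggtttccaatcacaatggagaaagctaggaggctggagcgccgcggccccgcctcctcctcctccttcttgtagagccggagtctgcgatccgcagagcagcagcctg
Ldha, first listed start, chr7:46845554-46845853, plus strand: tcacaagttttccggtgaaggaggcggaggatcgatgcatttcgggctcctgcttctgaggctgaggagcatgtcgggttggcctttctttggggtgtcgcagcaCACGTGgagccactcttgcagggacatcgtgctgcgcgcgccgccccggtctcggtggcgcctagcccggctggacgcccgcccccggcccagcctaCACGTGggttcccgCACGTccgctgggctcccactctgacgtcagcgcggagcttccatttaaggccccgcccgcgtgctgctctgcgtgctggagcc

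Neither the Pdk4 nor the Dlat promoter held any of these letters. AGGTCA was found in 1 of the 13 promoters, that of Ldhb, against 16.3% of 32851 mouse promoters of the same length. DR1 and DR4, which 0.0396% and 0.0152% of those promoters hold, were in none of the 13, nor were TCAAGGTCA (0.423%), GTAAACA (3.65%) or TATAAA (13.6%). The Ldha promoter held CACGTG at positions -145 and -48 from the start, and a further ACGTG, on the opposite strand, at -34. CACGTG, which 7.15% of all promoters hold, was found in 1 more, that of Pdk2. ACGTG outside CACGTG was found in those of Pdk3 and Pdhb as well, and 19.6% of all promoters hold ACGTG in any form. A match to these letters is a description of the window only, and sites farther from the start were not read. Only exact letters were matched, so variants of a site were not searched. Exact DR1 and DR4 are so rare that their absence from 13 promoters tells nothing about these genes.

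Each comparison below rests on the deposited probe set signals, in array units, and on their log2 ratio, RXRγ over control. A gene is called measured when a probe set exceeds 250 on the brighter array, and its value is the mean over those probe sets. It counts as higher or lower in RXRγ mice if this mean is 0.4 or more away from 0, a limit taken from the study's methods. Signals under 150 give no fold by themselves, only a bound. Of the 10 genes, 9 were measured, on 16 of their 21 probe sets. Of the 9, none was higher in RXRγ mice, 2 were lower and 7 were neither. Among all 3780 measured genes, 16.8% were higher and 20.1% were lower, and 2 of 9 members is near that background. The median log2 ratio was 0.10 over the members and -0.04 over all measured genes.

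**Figure D1:**
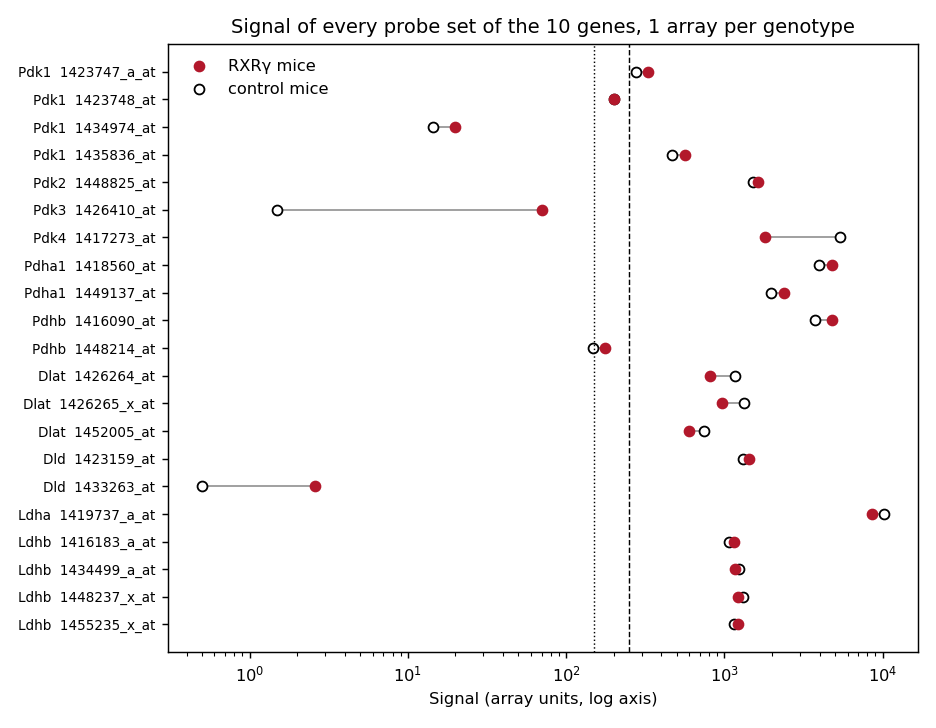
Signal of each of the 21 probe sets in RXRγ mice (filled circles) and control mice (open circles), in array units on a log axis; lines stand at 150 (dotted) and 250 (dashed). The widest gap among probe sets above 250 is that of Pdk4, at 1811 for RXRγ mice and 5362 for control mice, while the probe set of Pdk3 and 1 of Dld lie far under 150.

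Among the kinases, Pdk4 had the largest difference. Its probe set, 1417273_at, read 1811 in RXRγ mice and 5362 in control mice, a log2 ratio of -1.57 or a 2.96-fold lower signal. Among all genes, 58 of the 3780 measured genes (1.53%) had a log2 ratio as low or lower, Pdk4 included. Of the 795 genes with a control signal above 1000, 16 had a log2 ratio as low or lower, Pdk4 included. Of the 89 genes with a control signal at least that of Pdk4, 13 were lower and only Pdk4 itself reached -1.57. That last cut was set by the signal of Pdk4 itself. A single probe set measures Pdk4, so no second reading of the transcript was at hand. The listed markers of slow fibres, 8 of 8, were lower in the same RXRγ pool, beside 20.1% of all measured genes. Their summed signal was 3240 for RXRγ mice and 12090 for control mice. Their part in the difference of Pdk4 was not tested, and in pooled tissue RNA fewer cells of a type and less RNA per cell cannot be told apart.

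The other measured kinases, Pdk1 and Pdk2, did not differ by 0.4. Pdk2, an isoform found in most tissues, had 1631.5 in RXRγ mice and 1523 in control mice, a log2 ratio of 0.10. Pdk1 had 559.8 in RXRγ mice and 465.9 in control mice at its brightest probe set, 1435836_at. At 1423747_a_at, whose name marks probes common to several transcripts of the gene, it had 327.9 in RXRγ mice and 274.4 in control mice. Both ratios came to 0.26 on the log2 scale, and their difference between probe sets was 0.0079. The remaining probe sets of Pdk1 did not reach 250 on either array, and 1 of them, which read 199.4 in RXRγ mice and 201.2 in control mice, showed almost no difference. Pdk1 thus lay on the higher side without reaching 0.4 at any measured probe set. The log2 ratio of Pdk4 minus that of Pdk1 was -1.83, and minus that of Pdk2 it was -1.67.

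Pdk3 was not measured. Its only probe set read 70.1 in RXRγ mice and 1.5 in control mice, both under 150, so no fold is given. This kinase is best known from testis, kidney and brain.

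Within the complex, the subunits went different ways. The genes of the decarboxylase, which takes up pyruvate first and is the target of the kinases, lay on the higher side in RXRγ mice. Pdha1, its α subunit, had 4752 in RXRγ mice and 3956.5 in control mice at 1 probe set and 2395 in RXRγ mice and 1976 in control mice at the other. The log2 ratios were 0.26 and 0.28, a 1.21-fold difference on average. Pdhb, the β subunit, had 4773 in RXRγ mice and 3739 in control mice, a log2 ratio of 0.35, and its second probe set, too dim to count, had 175.6 in RXRγ mice and 148.0 in control mice. Both subunits of the decarboxylase thus differed in the same direction and by less than the threshold.

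Dlat, the acetyltransferase that forms the core of the complex, was lower in RXRγ mice. Its 3 probe sets had 811.3, 966.0 and 594.8 in RXRγ mice, against 1161.5, 1328 and 738.7 in control mice in the same order. All 3 ratios were below 0, from -0.52 to -0.31, with a mean of -0.43, or 1.35-fold lower. Of the probe sets, 1426265_x_at may also bind related sequences, as its suffix marks, and without it Dlat was still lower. Dlat lay just past the threshold, and 705 of 3780 genes (18.7%) had a ratio as low. With the log2 ratio centred by signal intensity (loess), that of Dlat was -0.38 and that of Pdhb 0.43, so Dlat was no longer called lower and Pdhb was called higher.

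Dld, the dehydrogenase that reoxidizes the lipoyl groups and also serves the 2-oxoglutarate and branched-chain complexes, had 1423 in RXRγ mice and 1314 in control mice, a log2 ratio of 0.12. Its second probe set was nearly empty and read 2.6 in RXRγ mice and 0.5 in control mice. The log2 ratio of Dlat minus that of Pdhb was -0.78, minus that of Pdha1 -0.70 and minus that of Dld -0.55. For comparison, the probe sets of a gene spanned a median of 0.20 on the log2 scale over the 1213 genes with more than 1 measured probe set. The 90th percentile of that span was 0.54. It is a spread between probe sets on the same 2 arrays and does not measure variation between animals, pools or arrays.

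Lactate dehydrogenase differed little. Ldha had 8582 in RXRγ mice and 10246 in control mice at its probe set, a log2 ratio of -0.26 that did not reach the threshold. Ldhb was read by 4 probe sets, and they disagreed in sign. Its signals were 1143, 1173, 1216 and 1216 in RXRγ mice, against 1065, 1241, 1314 and 1142 in control mice in the same order. The 4 log2 ratios ran from -0.11 to 0.10 with a mean of 0.00, so that the mean lay well within the spread between its own probe sets.

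**Figure D2:**
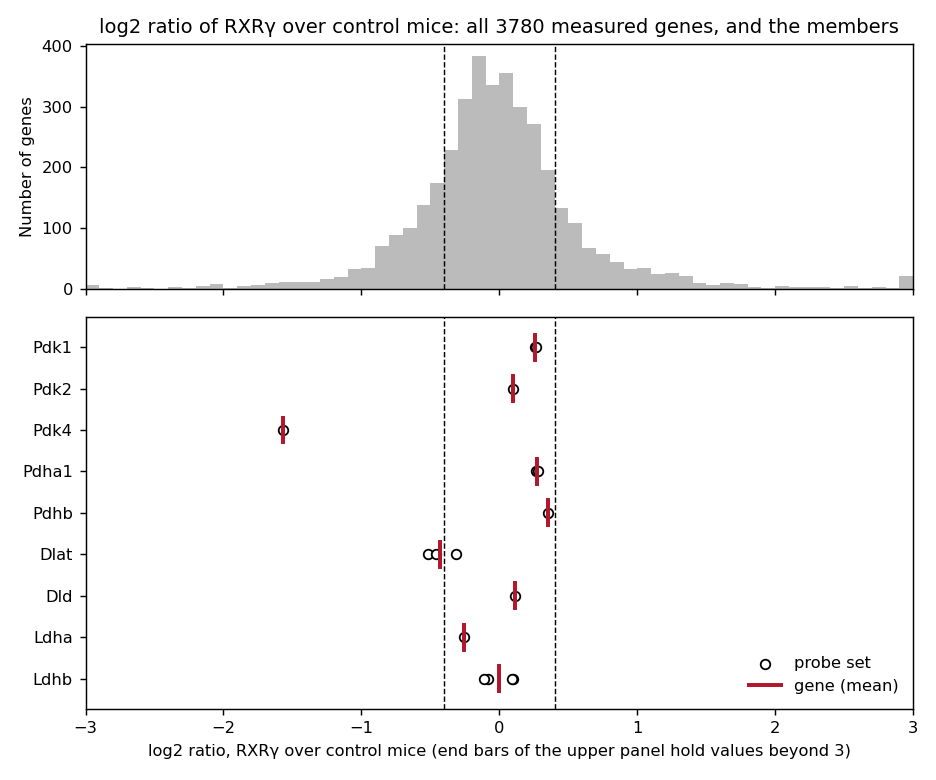
Upper panel, number of measured genes (3780 in all) by log2 ratio, RXRγ over control, with values beyond 3 in the end bars; lower panel, log2 ratio of each measured probe set (open circles) and the mean of each gene (red bars) for the 9 measured members, Pdk3 not being measured. The dashed lines stand at 0.4 above and below 0; Pdk4 lies at -1.57, Dlat at -0.43, and the other 7 between -0.26 and 0.35.

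Genes that work with the complex and around pyruvate were taken from lists on partners of the complex, transport, and other enzymes of pyruvate. Of 22 genes, 21 had a probe set and 11 were measured. Of these, 1 was higher and 3 were lower in RXRγ mice, with a median log2 ratio of -0.19. For 11 genes these counts are near the shares among all measured genes, 16.8% higher and 20.1% lower. Pdpr, which encodes the regulatory subunit of the phosphatase that reactivates pyruvate dehydrogenase, was lower at all 3 measured probe sets. Its mean signal was 373.8 in RXRγ mice and 660.8 in control mice, with log2 ratios from -1.15 to -0.64. The catalytic phosphatase subunit gene Pdp1 had 414.0 in RXRγ mice and 396.0 in control mice, a log2 ratio of 0.07, and Pdp2 was under 150 on both arrays. Pdhx, the protein that anchors the Dld product to the core, had 421.7 in RXRγ mice and 545.1 in control mice. The log2 ratio of -0.37 stayed short of the threshold. Lias, which makes the lipoyl groups that Dlat carries, had a log2 ratio of -0.21.

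In transport, the monocarboxylate carriers of lactate and pyruvate differed from each other. Slc16a1, which encodes MCT1, the carrier typical of oxidative fibres, had 1618.5 in RXRγ mice and 822.7 in control mice (log2 ratio 0.98). Slc16a3, which encodes MCT4, the carrier typical of glycolytic fibres, had 236.5 in RXRγ mice and 441.5 in control mice (log2 ratio -0.90). Each rests on 1 measured probe set. Bsg, the chaperone of both carriers, had a log2 ratio of 0.01, and Mpc1, a subunit of the mitochondrial pyruvate carrier, 0.05. Pdk1, Pdhb and Slc16a1 are among the genes that the study listed as increased from these same arrays, so their direction here is not independent evidence. For Pdk1 the study also ran quantitative PCR on samples that it states were used for the arrays as well, and it described the gene as markedly increased.

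Of the other pyruvate enzymes, Gpt2, the mitochondrial alanine aminotransferase that links pyruvate to alanine, was lower at all 4 measured probe sets. It averaged 322.7 in RXRγ mice and 955.6 in control mice, a mean log2 ratio of -1.63, or -1.59 with signals under 150 set to 150. At the 3 probe sets above 150 in both the log2 ratios ran from -1.60 to -1.40. The other had 136.2 in RXRγ mice and 573.3 in control mice, at least 3.82-fold lower. Pyruvate kinase (Pkm) and pyruvate carboxylase (Pcx) had log2 ratios of -0.17 and -0.19. The remaining lactate dehydrogenase genes listed were not measured. Ldhd, for D-lactate, came closest and had 212.4 in RXRγ mice and 77.1 in control mice.

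The sister complexes are built on the same plan and share the Dld product. Ogdh and Dlst, of the 2-oxoglutarate complex, had log2 ratios of 0.07 and 0.03. The measured genes of the branched-chain complex other than Dld, its kinase included, 4 in all, were lower in RXRγ mice. Of its decarboxylase genes, Bckdha had 287.2 in RXRγ mice and 462.2 in control mice, and Bckdhb had 314.7 in RXRγ mice and 594.4 in control mice. Dbt, the acyltransferase that corresponds to Dlat, had 139.9 in RXRγ mice and 400.7 in control mice. It was at least 2.67-fold lower. Bckdk, the kinase of that complex, had 401.8 in RXRγ mice and 584.9 in control mice, a log2 ratio of -0.54. In all, 4 of the 6 measured genes of this list were lower and none was higher, beside 20.1% and 16.8% of all measured genes. Dbt passes the filter on the control array only. With 250 on both arrays 3 were lower, beside 16.4% of all genes so measured. With a filter of 500 there were 2 lower, beside 21.2%.

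**Figure D3:**
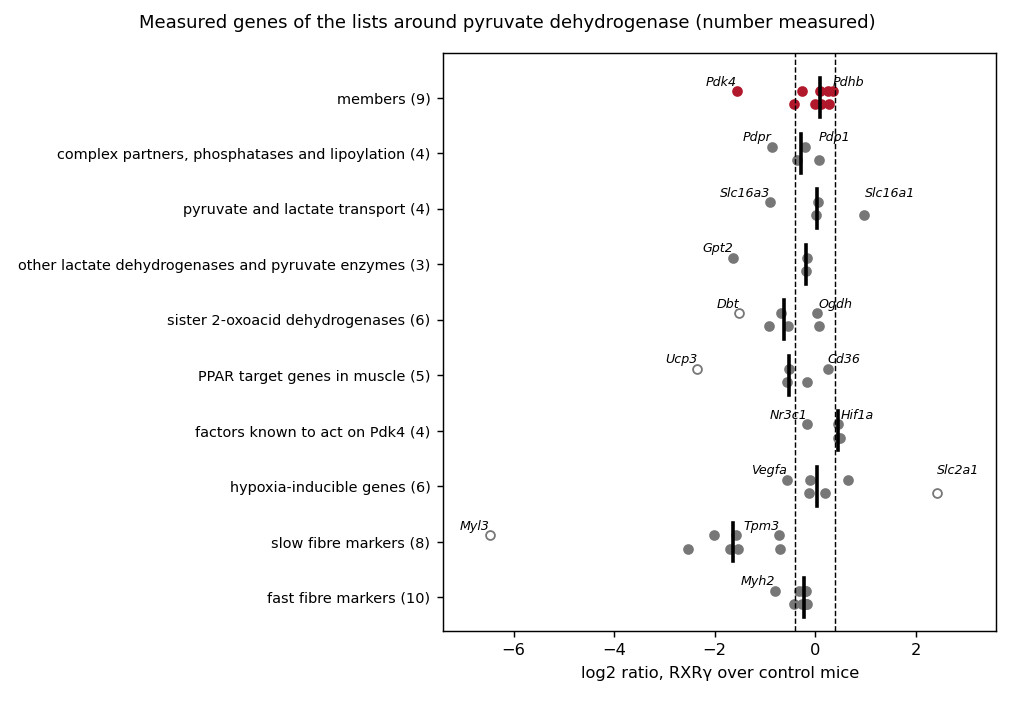
log2 ratio (RXRγ over control) of every measured gene by list, 1 point per gene, offset vertically only for legibility, with the list median as a black bar and the number measured in brackets; open points average under 150 on 1 array, so that their ratio is uncertain. Names stand at the ends of most lists, and the dashed lines at 0.4 above and below 0; the median of the members is 0.10, that of the sister 2-oxoacid dehydrogenases -0.61, and that of slow fibre markers -1.64.

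Pdk4 was set beside other genes known as PPAR targets in muscle and beside the factors known to act on it. Of 10 listed targets, 5 were measured, none was higher and 3 were lower in RXRγ mice. Among all measured genes, 16.8% were higher and 20.1% lower. Ucp3, an uncoupling protein of muscle mitochondria, averaged 88.5 in RXRγ mice and 451.5 in control mice and was at least 3.0-fold lower. It passes the filter on the control array only, and with 250 on both arrays 2 of the targets were lower. Slc25a20, the carnitine carrier, and Acadvl, an enzyme of fatty acid oxidation, had log2 ratios of -0.53 and -0.56. Cd36, a fatty acid transporter, had 0.24 and Hadha, another enzyme of that pathway, -0.18. Angptl4, an inhibitor of lipoprotein lipase, did not reach 250 and had 236.5 in RXRγ mice and 115.3 in control mice. With a filter of 150, 1 target was higher, and this was Angptl4.

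Of 8 factors, 4 were measured, with 3 higher and none lower in RXRγ mice, beside 16.8% and 20.1% of all measured genes. The coactivator gene Ppargc1a had 302.0 in RXRγ mice and 223.8 in control mice, a log2 ratio of 0.44. Esrra, the estrogen-related receptor α gene, had 549.4 in RXRγ mice and 400.6 in control mice, a log2 ratio of 0.46. Hif1a, a subunit of the hypoxia-inducible factor, had 485.6 in RXRγ mice and 344.3 in control mice, a log2 ratio of 0.50. That rests on 1 measured probe set, and a dimmer one, under 150 on both arrays, had 123 in RXRγ mice and 118.6 in control mice. All 3 lay just past the threshold. Ppargc1a did not reach it under 5 of the alternatives, at 0.33 to 0.39, among them its brightest probe set alone (0.36). When its dim second probe set was also counted, Esrra had a log2 ratio of -0.11. Nr3c1, the glucocorticoid receptor, had -0.16. Foxo1, Foxo3, Ppara and Ppard did not reach 250 on either array and were not measured.

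Pdk1 and Ldha belong to a wider group of hypoxia-inducible genes. Of 10 others listed, 6 were measured, 2 were higher and 1 was lower, beside 16.8% and 20.1% of all measured genes. With 250 on both arrays, 1 was higher and 0 were lower, as Slc2a1 passes the filter on the RXRγ array only. With a filter of 150, 2 were higher and 2 were lower. Slc2a1, the glucose transporter Glut1, averaged 570.5 in RXRγ mice and 110.8 in control mice, at least 3.70-fold higher, and the prolyl hydroxylase gene Egln3 had 435.3 in RXRγ mice and 278.6 in control mice. The growth factor gene Vegfa averaged 311.4 in RXRγ mice and 421.2 in control mice, and its brighter probe set alone lay within 0.4. The glycolysis genes Pgk1 and Aldoa and the mitophagy gene Bnip3 had log2 ratios of 0.19, -0.11 and -0.13. The study listed Slc2a1, Egln3 and Ppargc1a as increased from these arrays as well.

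Fibre type genes differed between the same pools. All 8 listed markers of slow fibres were lower in RXRγ mice, with a median log2 ratio of -1.64. With 250 required on both arrays, 5 were lower, as Myl3, Tnnt1 and Tnni1 pass the filter on the control array only. For Tpm3, lower by its mean, 1 of 3 measured probe sets had a log2 ratio of 0.06. Myl3, a light chain of slow myosin, averaged 23.2 in RXRγ mice and 1747 in control mice, at least 10.2-fold lower. Myh7, the slow myosin heavy chain, had 303.2 in RXRγ mice and 1754 in control mice. Of 10 fast fibre markers, none was higher and 2 were lower, near the 20.1% of all measured genes. These were the myosin heavy chain genes Myh2 (log2 ratio -0.81) and Myh4 (-0.42). The signals of the 10 summed to 101003 in RXRγ mice and 118972 in control mice. With quantile normalization, loess centring or the brightest probe set alone, 1 of the 10 was lower. Ldhb, the isoform of oxidative fibres, had a log2 ratio of 0.00 beside these values.

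The log2 ratio of Pdk4 lay between -1.57 and -1.50 across the ways of processing. It rests on 1 probe set, bright on both arrays. The signal filters, the floor and the choice of probe sets therefore could not change it. Median scaling, quantile normalization, loess centring and the pseudocount could, and gave -1.55, -1.52, -1.50 and -1.55. All of them reuse the same 2 arrays. The ranges were 0.17 to 0.29 for Pdk1, 0.10 to 0.15 for Pdk2, 0.26 to 0.34 for Pdha1 and 0.30 to 0.43 for Pdhb. Dlat ran from -0.46 to -0.38, Ldha from -0.26 to -0.17 and Ldhb from -0.11 to 0.05. Dld lay between 0.11 and 0.17 unless its nearly empty probe set was counted.

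**Figure D4:**
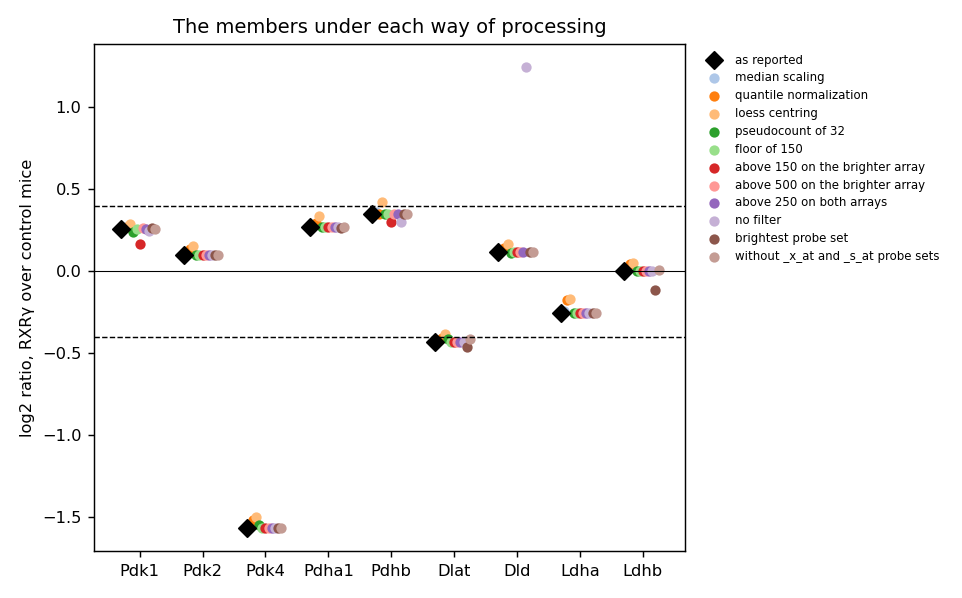
log2 ratio (RXRγ over control) of the 9 measured members under the processing reported (black diamonds) and 11 alternatives (coloured points); the dashed lines stand at 0.4 above and below 0. Pdk4 lies between -1.57 and -1.50, and most alternatives cannot move its single probe set. Dlat and Pdhb lie near the dashed lines, and the 1 point of Dld at 1.25 comes from counting its nearly empty probe set.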

How the data were processed

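Skeletal muscle RNA of RXRγ and control mice was measured on 2 arrays, 1 per genotype. The deposited values are linear intensity signals that the authors made with the Affymetrix Gene Chip software from matched and mismatched oligonucleotides. Trimmed by 2% on either side, the mean signal was 100.0 on both arrays, which shows a common scaling whose settings the sources used here do not state. Detection calls were not analysed here. Of 45101 probe sets, 34958 had 1 gene symbol in the platform annotation, 932 had several and 9211 none listed, and only the first kind was used. Signals above 150 were found at 8128 probe sets in RXRγ mice and 8091 in control mice, and at the 7306 above 150 on both, log2 signals correlated with r = 0.933 across probe sets, which are not independent replicates.

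log2 ratios of the deposited signals were computed without a pseudocount. Genes whose probe sets passed 0.4 in both directions were called neither way. No p-value was computed. Where the dimmer signal was under 150, it was set to 150 and the fold given as a bound. All members were named, and of the other lists up to 3 genes with the largest difference and those past the threshold, with others added after their values were seen. The members and lists were chosen with earlier results of these data known. The steps were run on simulated data with small noise and set shifts well beyond 0.4. That checks the computation and does not show how reliable calls near the threshold are. Alternatives were median scaling, quantile normalization, loess centring (statsmodels 0.14.6), a pseudocount of 32, a floor of 150, other signal filters, the brightest probe set, leaving out probe sets ending in _x_at or _s_at, and a threshold of 1. Python 3.11.15, pandas 2.3.3, numpy 2.4.6 and matplotlib 3.10.9 were used.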

Additional observations from a re-analysis of the deposited data

How the results depend on the processing

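No paired analysis was possible because each genotype has 1 array. With 1 array per genotype no error can be given, and dim probe sets have no usable ratio. A gene's value counted as moved beyond 0.20 on the log2 scale, the median span between the probe sets of a gene. Genes with a single probe set, such as Pdk4, cannot be moved by the filters or the choice of probe sets. Of 99 values of the measured members under the alternatives, 98 moved by less. The exception was Dld (1.25) without a signal filter, and with Pdk3, which was then also counted from dim signals, 2 members were higher. The number of members higher was 1 and lower 1 with loess centring, and 1 was lower at a threshold of 1, which was Pdk4. The counts of members higher and lower were otherwise as reported, and their median log2 ratio ran from 0.10 to 0.17.

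Among all measured genes, 636 were higher and 760 lower. The number higher was 982 with a filter of 150. With a filter of 500 there were 340 higher and 438 lower, with 250 on both arrays 371 and 501, without a filter 5208 and 4114, and at a threshold of 1 there were 191 and 155. Of 532 values that the alternatives gave for the other listed genes, 27 moved. Genes that a filter removed gave no value and were not counted as moved. Among these were Slc2a1, Ucp3 and Dbt with 250 on both arrays. Esrra, of the genes called higher or lower, changed sign, to -0.11 without a filter. Of 216 counts over those lists, 34 changed by more than 1.5 times.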
